A study of Homo sapiens with 9 samples.

Results

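The NKG2D ligands are cell surface proteins through which a stressed or transformed cell can be recognized by natural killer (NK) cells and cytotoxic T cells. The 8 human genes that encode them (MICA, MICB, ULBP1, ULBP2, ULBP3, RAET1E, RAET1G and RAET1L) were selected by their Ensembl identifiers among the 60617 genes counted, and all 8 were found. Their mRNA was measured by RNA-seq in PC-3 cells, an established human prostate cancer cell line, in 9 libraries. The one sampling time in the labels, 5 days of treatment, is given for genomic DNA, and none is stated for the RNA in the sources used here. The 3 conditions had 3 libraries each. Control cells were labelled Ctrl, and the study's methods describe the control as a vehicle of sulfuric acid and ethanol. Decitabine-treated cells (labelled Dec) received 1 µM of the DNA methyltransferase inhibitor decitabine. Cells under the combination treatment (labelled Dec_Sam) received 1 µM of decitabine together with 200 µM of S-adenosylmethionine (SAM), the methyl donor of DNA methyltransferases. The doses are those of the study's methods, and no library of SAM as a single agent was analysed here. The labels do not say whether the libraries of a group came from separate cultures, so the p-values measure the spread between these libraries, which may be technical.

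NKG2D, encoded by KLRK1, is an activating receptor of NK cells and of many T cells, and its ligands resemble MHC class I molecules but present no peptide. MICA and MICB span the membrane and carry an immunoglobulin-like domain next to it, whereas the ULBP and RAET1 proteins lack that domain, and several of them are held by a glycosylphosphatidylinositol (GPI) anchor. Healthy tissue shows little of these proteins, while heat shock, DNA damage, proliferation and viral infection are known to raise them. Tumor cells often carry them and can shed them from the surface by proteolysis. The values reported here are mRNA levels, and neither surface protein nor DNA methylation of these genes was measured in the files analysed.

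All 8 genes lie on chromosome 6 (GRCh38, GENCODE release 44), and all are annotated as protein-coding. MICA (31399784 to 31415315, plus strand) and MICB (31494881 to 31511124, plus strand) lie in the MHC region within 111 kb of each other. The other 6 form a cluster of 186 kb on the long arm. Along it they are ordered as RAET1E (149883179 to 149898113, minus strand), RAET1G (149916878 to 149923121, minus strand), ULBP2 (149942014 to 149949235, plus strand), ULBP1 (149963943 to 149973715, plus strand), RAET1L (150018334 to 150025532, minus strand) and ULBP3 (150061053 to 150069121, minus strand).

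Because decitabine acts on methylation at CG dinucleotides, the promoter sequences of the 2 members with the fewest and the 2 with the most CG dinucleotides are shown first. RefSeq promoter windows (GRCh38.p14, 250 bases before to 50 bases after the transcription start) were matched for all 8 members. RAET1E held 6 CG dinucleotides in the first of its 3 annotated windows, RAET1G 10, RAET1L 12, ULBP2 19, MICB 20, MICA 21, ULBP1 26 and ULBP3 27. The median of all 35116 windows was 14. The windows of RAET1E (chr6:149898064-149898363, minus strand), RAET1G (chr6:149923072-149923371, minus strand), ULBP1 (chr6:149963693-149963992, plus strand) and ULBP3 (chr6:150069072-150069371, minus strand) are printed in the direction of transcription, with each CG in capitals.
RAET1E: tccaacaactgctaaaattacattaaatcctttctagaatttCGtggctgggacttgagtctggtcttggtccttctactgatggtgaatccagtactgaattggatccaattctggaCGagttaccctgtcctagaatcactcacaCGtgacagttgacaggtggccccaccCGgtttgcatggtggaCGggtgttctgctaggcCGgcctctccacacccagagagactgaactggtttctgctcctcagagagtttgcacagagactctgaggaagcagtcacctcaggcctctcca
RAET1G: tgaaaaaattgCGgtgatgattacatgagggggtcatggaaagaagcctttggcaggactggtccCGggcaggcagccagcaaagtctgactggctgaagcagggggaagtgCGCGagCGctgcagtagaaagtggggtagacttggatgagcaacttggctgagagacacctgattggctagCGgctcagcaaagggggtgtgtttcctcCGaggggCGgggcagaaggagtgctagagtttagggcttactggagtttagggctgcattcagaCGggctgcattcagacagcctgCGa
ULBP1: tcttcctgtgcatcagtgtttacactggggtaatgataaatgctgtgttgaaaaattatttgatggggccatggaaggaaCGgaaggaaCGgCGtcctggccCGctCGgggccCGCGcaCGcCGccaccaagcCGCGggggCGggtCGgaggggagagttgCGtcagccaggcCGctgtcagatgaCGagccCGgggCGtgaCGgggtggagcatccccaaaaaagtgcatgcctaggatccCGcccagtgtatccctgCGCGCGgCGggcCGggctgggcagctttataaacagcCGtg
ULBP3: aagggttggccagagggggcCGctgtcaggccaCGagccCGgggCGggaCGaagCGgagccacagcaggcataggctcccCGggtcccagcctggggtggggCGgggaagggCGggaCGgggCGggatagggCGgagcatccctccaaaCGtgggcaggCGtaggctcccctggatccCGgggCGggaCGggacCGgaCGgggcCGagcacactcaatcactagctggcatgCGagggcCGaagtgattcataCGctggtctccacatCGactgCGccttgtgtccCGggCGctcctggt
The GC box GGGCGG, searched on both strands and containing a CG itself, was found in 44.95% of all windows. It occurred 6 times in the window of ULBP3, 2 times in that of ULBP1 and 1 time each in those of MICA, MICB, ULBP2 and RAET1G, while the windows of RAET1E and RAET1L held none. The CRE core TGACGT, which also contains a CG, the C/EBP-ATF element TGATGCAA and the core of the interferon-stimulated response element had no exact match in the windows of all 8 members. In all windows these 3 were found in 7.98%, 0.866% and 3.57%. Variants of these motifs were not searched, so the missing matches do not show that related sites were absent. The ULBP1 window, read on the strand opposite to the one printed, holds a stretch that differs from TGATGCAA at 1 base. It has C in place of T there and so contains a CG. These matches are descriptions of letters, and no binding or methylation was measured.

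The estimated counts, which sum to between 21934307 and 22489684 per library, were scaled by the trimmed mean of M-values (TMM) and are given as CPM, the scaled counts relative to the library total. The TMM factors were 0.895 to 0.902 in the controls and 1.033 to 1.078 in the treated libraries. Scaled by library size alone, the median change of all genes was 0.28 in place of 0.035 (log2) after decitabine and 0.27 in place of 0.048 after the combination treatment, and all changes given are relative to the TMM scaling. With library size alone, 8849 genes were higher and 3746 lower under decitabine in place of 6729 and 6030, and 8695 and 3857 under the combination treatment in place of 6647 and 5799. The quasi-likelihood test of edgeR was applied to the 18532 genes that passed its filter on low counts, with adjusted p-values under 0.05 taken as calls. All 8 members passed the filter. Between pairs of libraries of 1 group, the chi-square statistic per degree of freedom was 6.92 to 18.6 in the controls, 6.92 to 20.01 under decitabine and 6.40 to 26.1 under the combination treatment. The highest value was that between combination replicates 1 and 3. The epithelial markers KRT8, KRT18, KRT19 and EPCAM had means of 17.3 to 426 CPM in the controls. The fifth gene of that list, CDH1 (E-cadherin), had 1.87 CPM there, 14.4 under decitabine and 16.9 under the combination treatment. Of the luminal prostate markers, KLK3 had no counts in any library and TMPRSS2 had at most 6.

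After decitabine, 6 of the 8 NKG2D ligands rose, 1 fell and 1 was not called by edgeR's quasi-likelihood test. MICA, MICB, ULBP2, RAET1E, RAET1G and RAET1L were the 6 that rose, ULBP3 fell (with library size alone its log2 fold change was 0.020), and ULBP1 was not called. Among all genes tested, 36.3% were higher and 32.5% were lower in this comparison. The median log2 fold change of the members was 0.87, beside 0.035 for all genes tested. Of all genes, 68.8% were called in either direction. In TMM-scaled CPM the control and decitabine libraries did not overlap for any of the 8. The share of all genes without overlap was not computed, so nothing is read from this count. It also depends on the scaling. The unscaled estimated counts overlapped for ULBP1 (109 to 151 in the controls, 110 to 127 under decitabine) and for ULBP3 (374 to 409 and 382 to 405). For the uncalled ULBP1 the gap was narrow, with 5.36 CPM in decitabine replicate 2 and 5.38 CPM in control replicate 3. At a log2 fold change of at least 1, RAET1E, RAET1G and RAET1L were higher and no member was lower, where 22.7% of all genes were higher and 6.15% lower. Because bulk RNA was measured, a larger share of cells with a transcript and more transcript per cell cannot be told apart.

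The combination treatment, compared with the same 3 control libraries, gave a median log2 fold change of 0.90 over the members, beside 0.048 for all genes tested. MICA, MICB, ULBP2, RAET1E, RAET1G and RAET1L were higher here too, ULBP1 was lower and ULBP3 was not called. Of all genes tested, 35.9% were higher, 31.3% were lower and 67.2% were called in either direction. Again no member overlapped between the groups in TMM-scaled CPM. The share of all genes without overlap was not computed here either, so nothing is read from this count. The unscaled estimated counts of ULBP3 overlapped, with 374 to 409 in the controls and 384 to 407 under the combination treatment. At a log2 fold change of at least 1, MICB, RAET1E, RAET1G and RAET1L were higher and no member was lower, beside 21.4% and 6.56% of all genes. Both comparisons share their controls and are therefore not independent of each other.

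The direct comparison of the combination treatment against decitabine asks what the addition of SAM changed. RAET1E and ULBP1 were lower with SAM, no member was higher and 6 were not called, with a median log2 fold change of -0.0020 over the 8 members and 0.0021 over all genes tested. In this comparison 7.67% of all genes were higher, 8.02% lower and 15.7% called in either direction. No member reached a log2 fold change of 1, which 0.399% of all genes did upward and 1.74% downward. In TMM-scaled CPM the libraries of the groups did not overlap for MICA, ULBP1, RAET1E and RAET1L. No share over all genes was computed to set beside this, and nothing is read from it. For the 6 members without a call, the 95% intervals of the difference are given with each gene.

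**Figure D1:**
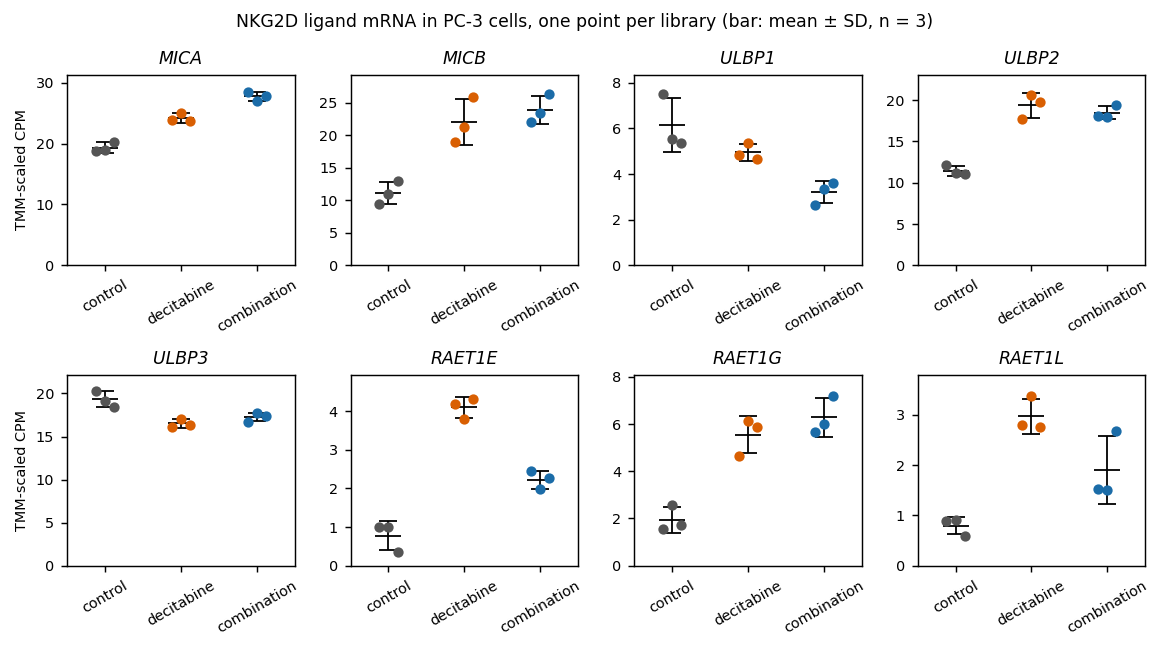
Level of each NKG2D ligand (y axis, TMM-scaled CPM from 0) in the control, decitabine and combination libraries (x axis), with 1 point per library and bars for the mean ± SD of 3 libraries. The treated points lie above the controls for 6 genes and below them for ULBP1 and ULBP3 (for ULBP3 the log2 fold changes turn to 0.020 and 0.060 with library size alone), and the combination points of RAET1E (1.98 to 2.44 CPM) lie between its control and decitabine points.

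**Figure D2:**
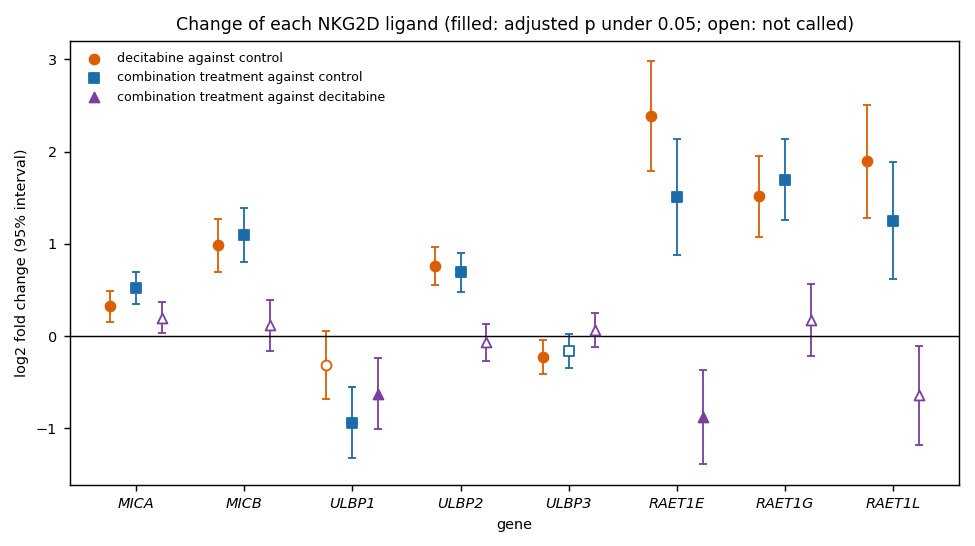
log2 fold change of each NKG2D ligand (y axis) by gene (x axis) in the 3 comparisons, with bars for 95% intervals and filled symbols for an adjusted p under 0.05 by edgeR's quasi-likelihood test. The changes against control reach from -0.94 for ULBP1 to 2.39 for RAET1E, and in the comparison of the combination treatment against decitabine the filled symbols are ULBP1 and RAET1E.

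RAET1E, which encodes a transmembrane member of the family (also called ULBP4), had the largest increase among the ligands under decitabine, whereas under the combination treatment RAET1G had a larger one. Its CPM was 0.993, 1.001 and 0.346 in the controls, 4.19, 3.80 and 4.32 under decitabine, and 2.44, 1.98 and 2.26 under the combination treatment. These values rest on sums over 3 libraries of 47.0 estimated counts in the controls, 291 after decitabine and 154 after the combination treatment. The 3 groups were fully separated, with the combination libraries between the others. The log2 fold change was 2.39 under decitabine (standard error 0.28, adjusted p = 3.29e-06 by edgeR's quasi-likelihood test), a 5.23-fold increase. Under the combination treatment it was 1.51 (standard error 0.29, adjusted p = 0.00037 in the same test). Against decitabine alone, RAET1E was lower with SAM by a log2 fold change of -0.88 (95% interval -1.39 to -0.37, adjusted p = 0.024 by edgeR's quasi-likelihood test). This last call was lost when decitabine replicate 1 (-0.86, adjusted p = 0.059), decitabine replicate 2 (-0.93, adjusted p = 0.069), combination replicate 1 (-0.95, adjusted p = 0.055) or combination replicate 2 (-0.80, adjusted p = 0.12) was left out, with the same direction each time in edgeR's test.

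The RAET1E gene overlaps ENSG00000285991, annotated as protein-coding on the same strand, with which it shared 14.2% of its stretches of 31 bases. That gene had means of 3.87, 13.9 and 7.47 counts in the control, decitabine and combination groups. With the counts of both genes summed, an alternative chosen after the data were seen, the log2 fold changes were 2.25, 1.38 and -0.87 in the 3 comparisons, and the last had an adjusted p of 0.016 by edgeR's quasi-likelihood test. The antisense RNA RAET1E-AS1 also overlaps RAET1E and RAET1G. It was not called in any comparison (log2 fold changes of 0.049, 0.37 and 0.32), and since the strand setting of the counting is not stated, reads of antisense partners may not have been separated.

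RAET1L, which encodes the GPI-anchored ULBP6, had the second largest increase under decitabine and the third largest under the combination treatment, after RAET1G and RAET1E. Its CPM was 0.894, 0.901 and 0.592 in the controls, 2.79, 3.37 and 2.75 under decitabine, and 1.52, 1.496 and 2.68 under the combination treatment. Every treated library was above every control, and combination replicate 3 was close to the decitabine libraries while replicates 1 and 2 lay between the groups. The log2 fold change was 1.90 under decitabine (standard error 0.28, adjusted p = 3.69e-05) and 1.25 under the combination treatment (standard error 0.30, adjusted p = 0.0017), both by edgeR's quasi-likelihood test. Between the treatments RAET1L had a log2 fold change of -0.64 (95% interval -1.18 to -0.11), which was not called (adjusted p = 0.094 in edgeR's test). Without combination replicate 3 it was -0.97 and was called, with an adjusted p of 0.012 in the same test. Leaving out that library also moved the change against control from 1.25 to 0.92 (adjusted p = 0.011 by edgeR's quasi-likelihood test).

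RAET1G encodes ULBP5. Its CPM was 1.54, 2.55 and 1.73 in the controls, 4.65, 6.12 and 5.89 under decitabine, and 5.66, 5.98 and 7.20 under the combination treatment. The treated libraries were all above the controls and overlapped each other. Under decitabine the log2 fold change was 1.52 (standard error 0.21, adjusted p = 1.44e-05 by edgeR's quasi-likelihood test), and under the combination treatment it was 1.69 (standard error 0.20, adjusted p = 4.96e-06). The difference between the treatments was 0.18 on the log2 scale (95% interval -0.21 to 0.57), and was not called.

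ULBP2, a GPI-anchored ligand, rose from a higher level. Its CPM was 12.2, 11.2 and 11.01 in the controls, 17.7, 20.6 and 19.8 under decitabine, and 18.1, 17.95 and 19.4 under the combination treatment. The treated groups overlapped each other and were separate from the controls. The log2 fold change was 0.76 (standard error 0.10, adjusted p = 8.58e-06) under decitabine and 0.69 (standard error 0.10, adjusted p = 2.29e-05) under the combination treatment by edgeR's quasi-likelihood test. Between the treatments it was -0.068 (95% interval -0.27 to 0.13).

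ULBP2, RAET1G and RAET1L are close copies, and their counts are therefore uncertain. Of the distinct 31-base stretches of ULBP2 transcripts, 42.1% also occurred in RAET1L, and of those of RAET1L 41.8% occurred in ULBP2. RAET1G shared 15.6% of its stretches with ULBP2 and 16.7% with RAET1L. How kallisto divided reads from the shared stretches between the 3 genes was not tested. With the counts of the 3 genes summed, an alternative chosen after the data were seen, the log2 fold change was 0.98 under decitabine and 0.91 under the combination treatment (adjusted p = 8.26e-07 and 1.75e-06 by edgeR's quasi-likelihood test). Between the treatments the sum changed by -0.065 (adjusted p = 0.68 in the same test). Within the trio, the ratio of RAET1L to ULBP2 counts was 0.0689 ± 0.0122 (SD, n = 3) in the controls, 0.154 ± 0.0122 under decitabine and 0.102 ± 0.0313 under the combination treatment, and its control values of 0.0554 to 0.0791 were the lowest.

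**Figure D3:**
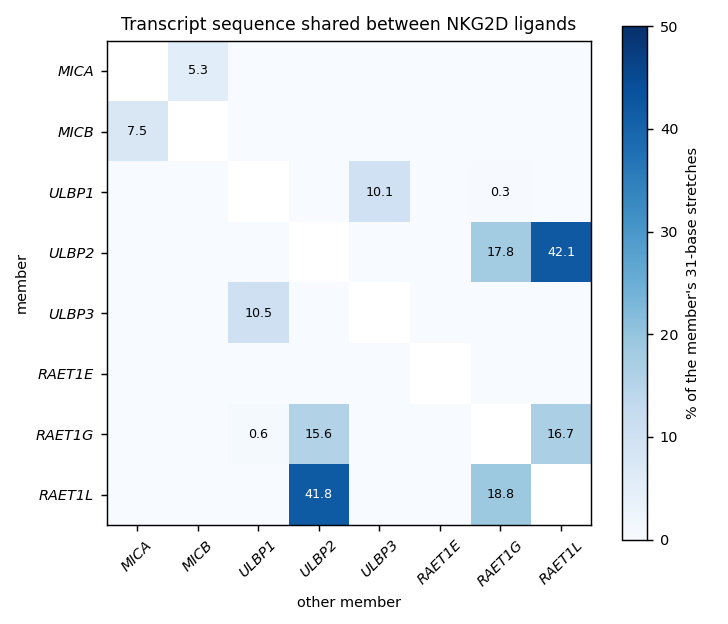
Share of the 31-base stretches of each NKG2D ligand's transcripts (row) that also occur in transcripts of another ligand (column), in percent, with darker blue for a larger share. ULBP2 and RAET1L share most (42.1% and 41.8%), RAET1E shares with no other ligand, and MICA and MICB share 5.28% and 7.48% with each other.

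MICA and MICB, the transmembrane ligands of the MHC region, also rose with both treatments, with the larger log2 fold changes for MICB. MICA had 18.7, 19.0 and 20.3 CPM in the controls, 23.9, 25.1 and 23.6 under decitabine, and 28.5, 27.0 and 27.9 under the combination treatment. The 3 groups were separate, and here the combination libraries were the highest. The log2 fold change was 0.32 under decitabine (standard error 0.08, adjusted p = 0.0024) and 0.52 under the combination treatment (standard error 0.08, adjusted p = 4.62e-05), both by edgeR's quasi-likelihood test. These correspond to 1.25-fold and 1.44-fold increases. Between the treatments the difference was 0.20 (95% interval 0.032 to 0.37), which was not called after adjustment (adjusted p = 0.097 in edgeR's test).

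MICB had 9.48, 11.01 and 12.9 CPM in the controls, 18.9, 21.3 and 25.96 under decitabine, and 21.99, 23.4 and 26.3 under the combination treatment. Each treated library was above each control, and the treated groups overlapped. The log2 fold change was 0.98 under decitabine (standard error 0.14, adjusted p = 1.74e-05) and 1.10 under the combination treatment (standard error 0.14, adjusted p = 6.2e-06), again by edgeR's quasi-likelihood test. Between the treatments it was 0.12 (95% interval -0.16 to 0.39). The ratio of MICB to MICA counts was 0.574 ± 0.0651 (SD, n = 3) in the controls, 0.912 ± 0.164 under decitabine and 0.861 ± 0.0862 under the combination treatment, and the control libraries (0.506 to 0.636) did not overlap the treated ones (0.772 to 1.10). MICB-DT, a divergent antisense RNA that overlaps MICB, had a log2 fold change of 0.94 under decitabine (adjusted p = 0.014 in edgeR's test) at 0.630 CPM in the controls and 1.21 CPM under decitabine. Its part in the MICB values was not tested.

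The MICA and MICB promoter windows were 86.6% identical over 284 aligned bases. Both are known as heat shock-inducible genes, and each window held 1 inverted pair of the heat shock motif, GAANNTTC, which lay 135 bases upstream of the start in MICA and 139 bases upstream in MICB. The pair reads the same on both strands, occurred in 6.77% of all windows, and was found in no window of the other 6 members. The surrounding 60 bases of MICA (chr6:31403434-31403493, plus strand) and MICB (chr6:31497980-31498039, plus strand) in GRCh38.p14 are shown with the pair in capitals.
MICA: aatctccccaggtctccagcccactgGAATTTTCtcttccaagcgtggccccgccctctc
MICB: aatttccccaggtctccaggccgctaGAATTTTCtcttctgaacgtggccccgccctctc
Heat shock genes were read from a list of 5. HSPA8, which encodes a constitutive chaperone, fell with both treatments (log2 fold changes of -0.59 and -0.62, adjusted p = 0.0023 and 0.0018 by edgeR's quasi-likelihood test). The inducible HSPA1A and HSPA1B as well as HSPH1 and DNAJB1 were not called in any comparison, with log2 fold changes of -0.17 to 0.36. The controls were widely spread, with 116, 190 and 249 CPM of HSPA1A and 1280, 1797 and 2107 CPM of HSPA8. The summed level of the list was 1965 to 3222 CPM in the controls, 1944 to 2123 under decitabine and 2063 to 2135 under the combination treatment. With this spread, a missing call against control does not show that a gene was unchanged. None of the 5 was called between the treatments, where 15.7% of all genes tested were. Against control, 36.3% of all genes tested were higher and 32.5% lower under decitabine, and 35.9% and 31.3% under the combination treatment. With library size alone, 1 of the 5 was higher and 0 lower under decitabine, and 1 was higher and 1 lower under the combination treatment.

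ULBP1, a GPI-anchored ligand, was lowest in the combination treatment. Its CPM was 7.497, 5.55 and 5.38 in the controls, 4.82, 5.36 and 4.66 under decitabine, and 2.66, 3.34 and 3.62 under the combination treatment. The combination libraries were all below the decitabine libraries, which lay just below the controls. Under decitabine the log2 fold change of -0.31 (95% interval -0.68 to 0.054) was not called (adjusted p = 0.12 by edgeR's quasi-likelihood test). Under the combination treatment it was -0.94 (standard error 0.18, adjusted p = 0.00032 in edgeR's test), which is 1.91-fold lower than the controls. ULBP1 was also lower with SAM than under decitabine alone, by a log2 fold change of -0.62 (95% interval -1.01 to -0.24, adjusted p = 0.031 in edgeR's test). Leaving out decitabine replicate 1 (-0.64, adjusted p = 0.061), decitabine replicate 2 (-0.56, adjusted p = 0.12), combination replicate 1 (-0.51, adjusted p = 0.12) or combination replicate 2 (-0.65, adjusted p = 0.093) ended this call in edgeR's test and kept its direction.

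ULBP3, another GPI-anchored ligand, had the smallest absolute log2 fold changes against control. Its CPM was 20.3, 19.2 and 18.5 in the controls, 16.2, 17.1 and 16.3 under decitabine, and 16.7, 17.7 and 17.3 under the combination treatment. The control libraries were the highest, and the treated groups overlapped. The log2 fold change was -0.23 under decitabine (standard error 0.09, adjusted p = 0.031 by edgeR's quasi-likelihood test), but with library size alone it was 0.020 (adjusted p = 0.85). The call also ended with DESeq2 (-0.21, adjusted p = 0.071), with only the 6 libraries compared (-0.20, adjusted p = 0.068), and without control replicate 1 (-0.20, adjusted p = 0.086), control replicate 2 (-0.24, adjusted p = 0.056), decitabine replicate 1 (-0.21, adjusted p = 0.070) or decitabine replicate 3 (-0.22, adjusted p = 0.062). The change under the combination treatment, on the log2 scale, was -0.16 (95% interval -0.35 to 0.024), or 0.060 with library size alone, and was not called. Between the treatments it was 0.064 (95% interval -0.12 to 0.25). ULBP1 and ULBP3 shared 10.1% and 10.5% of their 31-base stretches with each other.

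The members' summed level was 70.9 ± 0.660 CPM (SD, n = 3) in the controls, 99.7 ± 5.71 under decitabine and 101 ± 4.96 under the combination treatment. The controls (70.3 to 71.6) were separate from the treated libraries (93.1 to 107), which overlapped between the treatments. Levels of different genes were compared as CPM per kilobase of the canonical transcript. In the controls the order was MICA at 14.1, ULBP2 at 8.57, ULBP3 at 6.21, MICB at 4.61, ULBP1 at 1.91, RAET1G at 1.69, RAET1L at 0.591 and RAET1E at 0.120 CPM per kilobase. Of the neighbors in this order, only ULBP1 and RAET1G overlapped. MICA's place depends on the transcript length used, since its canonical transcript has 1370 bases and all its annotated exons together 3851 bases. With all exons its control level was 5.02, below those of ULBP2 and ULBP3.

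Under decitabine MICB (9.12 CPM per kilobase) passed ULBP3 (5.31), and RAET1L (2.21) passed ULBP1 (1.54), while RAET1G (4.83) overlapped ULBP3. MICA at 17.7 and ULBP2 at 14.5 remained first and second in the order, and RAET1E at 0.629 stayed last. Under the combination treatment the levels were 20.3 for MICA, 13.8 for ULBP2, 9.89 for MICB, 5.55 for ULBP3, 5.46 for RAET1G, 1.41 for RAET1L, 0.999 for ULBP1 and 0.341 for RAET1E, all in CPM per kilobase. Here ULBP3 overlapped RAET1G, and RAET1L overlapped ULBP1. The ratio of ULBP2 to ULBP1 counts summarizes the divergence within the GPI-anchored ligands. It was 1.89 ± 0.229 (SD, n = 3) in the controls, 3.92 ± 0.290 under decitabine and 5.85 ± 0.821 under the combination treatment, and the 3 groups did not overlap.

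**Figure D4:**
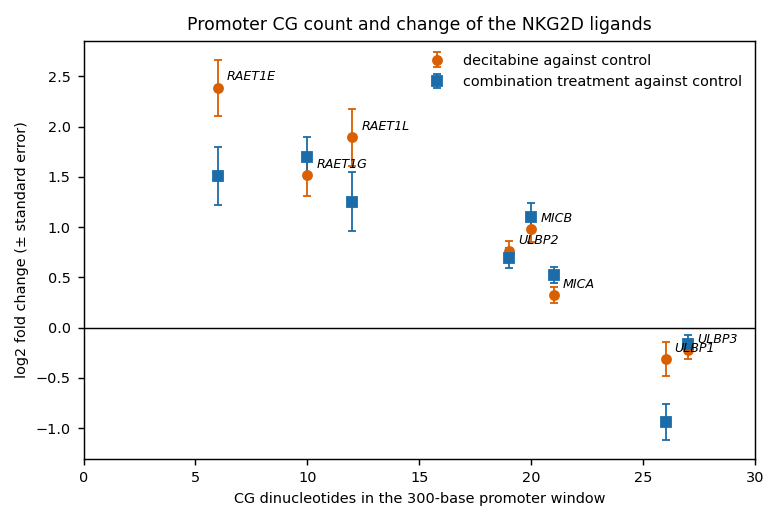
log2 fold change of each NKG2D ligand against control (y axis, bars for the standard error) and the number of CG dinucleotides in its promoter window of 300 bases (x axis), for decitabine and the combination treatment. The 3 RAET1 genes with 6 to 12 CG dinucleotides lie at the top left, and ULBP1 and ULBP3 with 26 and 27 lie below 0, although with library size alone ULBP3 turns to 0.020 and 0.060.

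Read against the promoter windows of RAET1E, RAET1G, ULBP1 and ULBP3, the members with few CG dinucleotides had the larger increases. RAET1E, RAET1L and RAET1G, which had the fewest, also had the lowest control means (0.780, 0.796 and 1.94 CPM). The part of the starting level was not tested. Spearman's rho between the CG count and the log2 fold change was -0.93 over the 8 genes with either treatment, given as a description over genes that share 2 loci, the same control libraries and partly the same sequence. Among other genes, those with the fewest CG dinucleotides also had the larger increases, mainly as a difference between the lowest range and the others. Over 11628 protein-coding genes with a matched window, rho was -0.19 under decitabine and -0.17 under the combination treatment. Under decitabine the median log2 fold change was 0.54 for the 2091 genes with 0 to 12 CG dinucleotides. It was -0.063 for the 2232 genes with 13 to 21 and -0.13 for the 7305 with 22 or more. In the same order, 53.1%, 31.9% and 27.5% of them were called higher. Within these ranges rho was only -0.078, -0.043 and -0.017 under decitabine. These values are incomplete and void as a check of the members, since a window was matched for only 79.6% of the protein-coding genes tested. CG count does not measure methylation, and the state of these promoters in PC-3 cells was not analysed here.

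The genes around the 2 loci were described within 250 kb, a window chosen after the members' values were seen. Over all genes tested, 36.3% were higher and 32.5% lower under decitabine, and 35.9% and 31.3% under the combination treatment. Between the treatments these shares were 7.67% and 8.02%. Around the ULBP and RAET1 cluster, 11 other genes were tested, of which 4 were higher and 3 lower under decitabine, 4 higher and 3 lower under the combination treatment, and none was called between the treatments. RAET1K, a pseudogene of the family between ULBP1 and RAET1L, fell under decitabine (log2 fold change -1.49, adjusted p = 0.00081) and under the combination treatment (-1.42, adjusted p = 0.0012) by edgeR's quasi-likelihood test. RAET1K was low, with means of 1.67, 0.592 and 0.620 CPM in the control, decitabine and combination groups. Its estimated change was opposite in sign to that of RAET1L, its neighbor. How reads were divided between these related genes was not tested. Around MICA and MICB, 29 other genes were tested, of which 11 were higher and 9 lower under decitabine, 10 higher and 9 lower under the combination treatment, and 3 higher and 3 lower between the treatments. HCP5, an RNA gene that lies between MICA and MICB, rose by a log2 fold change of 2.98 under decitabine (adjusted p = 3.81e-06) and 2.07 under the combination treatment (adjusted p = 0.00026), and was lower with SAM by -0.92 (adjusted p = 0.034), by edgeR's quasi-likelihood test.

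**Figure D5:**
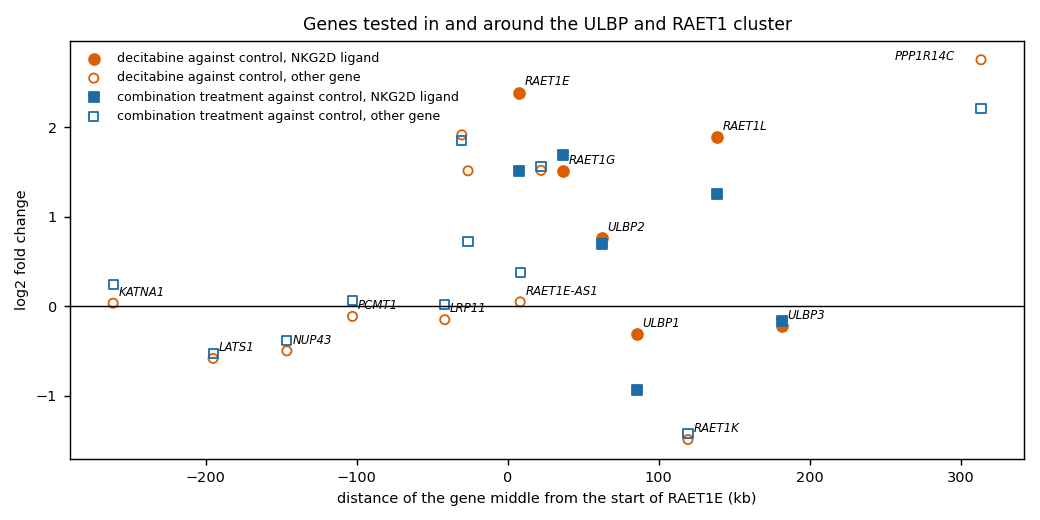
log2 fold change against control (y axis) of each gene tested in and around the ULBP and RAET1 cluster, by the distance of the gene's middle from the start of the RAET1E annotation in kb (x axis), with filled symbols for NKG2D ligands and open symbols for other genes, those known by identifier alone without a name. RAET1E, RAET1G, ULBP2 and RAET1L lie above 0 and ULBP1, ULBP3 and the pseudogene RAET1K below it, while with library size alone ULBP3 turns to 0.020 and 0.060.

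Of 11 relatives and overlapping RNAs of the family that were listed, 5 were tested. Under decitabine HCP5 and MICB-DT rose, RAET1K fell and MICE and RAET1E-AS1 were not called. Under the combination treatment HCP5 rose, and so did MICE, an MHC class I chain-related pseudogene (log2 fold change 0.90, adjusted p = 0.045 by edgeR's quasi-likelihood test), while RAET1K fell. Between the treatments only HCP5 was called among these 5, and it was lower. Under the combination treatment, scaling by library size gave 3 higher and 1 lower. For comparison, 36.3% of all genes tested were higher and 32.5% lower under decitabine. The shares were 35.9% and 31.3% under the combination treatment, and 7.67% and 8.02% between the treatments. The other 6 were too low to be tested or matched no identifier, and MICC and MICG had no counts in any library.

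The enzymes that release NKG2D ligands from the cell surface moved in both directions. Of 7 listed genes 6 were tested, and with each treatment 2 rose, 3 fell and 1 was not called, with median log2 fold changes of -0.13 and -0.22. All genes tested were higher in 36.3% and lower in 32.5% under decitabine, and in 35.9% and 31.3% under the combination treatment. Scaling by library size gave 3 higher and 1 lower under decitabine, and 3 and 3 under the combination treatment. ADAM9 rose from 180 to 235 CPM under decitabine and to 243 CPM under the combination (log2 fold changes of 0.38 and 0.43). ADAM17, a main sheddase of MIC and ULBP proteins, fell from 49.3 to 37.0 and 32.4 CPM (log2 fold changes of -0.42 and -0.61, adjusted p = 0.0023 and 0.00012 by edgeR's quasi-likelihood test). MMP9 rose from 0.165 to 4.004 and 3.55 CPM, whereas MMP14 (log2 fold changes of -0.55 and -0.65) and PDIA6, the disulfide isomerase that acts on MICA before its cleavage (-0.75 and -0.69), fell. ADAM10 was not called, with log2 fold changes of 0.15 and 0.17, and MMP2 was too low to be tested. No gene of the list was called between the treatments.

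Genes of the GPI anchor pathway, on which ULBP1, ULBP2, ULBP3 and RAET1L depend for their place at the surface, were lower or not called. Under decitabine 3 of 6 fell and under the combination treatment 4 of 6, where 32.5% and 31.3% of all genes tested were lower. None of the list was higher, where 36.3% and 35.9% of all genes tested were. With library size alone, 2 were higher and 2 lower under decitabine, and 1 and 4 under the combination treatment. PIGU (log2 fold changes of -1.34 and -1.30) and PIGT (-0.35 and -0.38), subunits of the transamidase that attaches the anchor, fell with both treatments, as did PIGA, of the first step of anchor synthesis (-0.97 and -0.88). GPAA1, another transamidase subunit, was the one gene of the list called between the treatments, from 405 CPM under decitabine to 283 CPM with SAM added (log2 fold change -0.52, adjusted p = 0.002 by edgeR's quasi-likelihood test). In the controls it had 429 CPM.

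Of 21 listed genes with a described role in NKG2D ligand transcription or in stress signalling upstream of it, 19 were tested. None rose under decitabine and 11 fell, and under the combination treatment 3 rose and 11 fell. Over all genes tested, 36.3% were higher and 32.5% lower under decitabine, and 35.9% and 31.3% under the combination treatment. The median log2 fold changes were -0.30 and -0.32. With library size alone, 2 were higher and 5 lower under decitabine, and 4 and 8 under the combination treatment. ATF4, a transcription factor described for the ULBP1 promoter, had 452 CPM in the controls, 211 under decitabine and 168 under the combination treatment. It was the one gene of the list lower with SAM than under decitabine alone (log2 fold change -0.33, adjusted p = 0.027 by edgeR's quasi-likelihood test), and in the comparisons with control it changed by -1.10 and -1.42. ULBP1 and ATF4 were thus both lowest in the combination libraries, and any relation between them was not tested.

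E2F1, of a transcription factor family described to act on the Raet1 genes of the mouse, was 98.2 CPM in the controls, 87.4 under decitabine and 116 under the combination treatment. Under decitabine its log2 fold change was -0.17, and 0.080 with library size alone. It was higher with SAM than under decitabine alone (log2 fold change 0.40, adjusted p = 0.0025 by edgeR's quasi-likelihood test), as was the checkpoint kinase gene CHEK1 (0.36, adjusted p = 0.03). The histone deacetylase genes HDAC1, HDAC2 and HDAC3 fell under decitabine by 0.96, 0.45 and 0.60 on the log2 scale. SP1, whose protein binds GC boxes, fell with both treatments (log2 fold changes of -0.40 and -0.51). HSF1, the heat shock factor, also fell with both (-0.34 and -0.21), although with library size alone the second change was 0.013. RELA, NFKB1 and RBM4, the last a splicing factor described for ULBP1, were not called in any comparison. STAT3 had no counts in any library.

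Markers of NK cells and lymphocytes were read because such cells would carry the receptor. Of 11 listed, 9 were too low to be tested, and NCR1, NKG7 and PRF1 had no counts in any library. The receptor gene KLRK1 had means of 0.0662, 0.0986 and 0.0877 CPM in the control, decitabine and combination groups. KLRD1 (log2 fold changes of 2.11 and 1.97) and PTPRC (3.59 and 3.07) rose with both treatments from 0.397 and 0.0828 CPM. Among all genes tested, 36.3% were higher under decitabine and 35.9% under the combination treatment. The summed level of the list was 0.450 to 0.844 CPM in the controls, 2.83 to 3.63 under decitabine and 2.44 to 3.24 under the combination treatment. The part of the listed genes in the members' values was not tested.

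For each member, the tested genes with the highest Pearson correlation of log2 CPM over the 9 libraries were named among the 15311 whose mean reached 1 CPM, as a description of points that share groups and scaling. They were STK26 (0.996) and TXNRD1 (0.992) for MICA, NPC2 (0.997) and MRAS (0.995) for MICB, NIPBL-DT (0.977) and UBA6 (0.972) for ULBP1, and LEPROT (0.997) and BMPER (0.996) for ULBP2. For ULBP3 they were PSMC1P1 (0.983) and EPHA3 (0.975), for RAET1G SPNS2 (0.992) and SDC2 (0.991), and for RAET1L PTPRH (0.993) and SOCS1 (0.990). RAET1E was closest to ENSG00000285634 (0.998) and CD2BP2-DT (0.988). How common such values were differed between members. Of the genes compared, 17.7% were above 0.9 with ULBP2, 15.7% with RAET1G, 15.6% with MICB and 8.51% with MICA. The shares were 7.03% with RAET1L, 4.34% with RAET1E, 3.42% with ULBP3 and 1.42% with ULBP1. Among the members themselves, RAET1E and RAET1L correlated at 0.94 and MICB and RAET1G at 0.95, while ULBP1 ranged from -0.88 with MICA to -0.30 with RAET1L for the 6 members that rose, and ULBP3 from -0.85 with MICB to -0.74 with MICA, each over 9 libraries.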

How the data were processed

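PC-3 RNA-seq libraries (3 control, 3 decitabine, 3 decitabine with SAM) were grouped by the treatment label. According to the submitters' processing notes, the authors used Trim Galore 0.6.4, kallisto, whose version the notes give as 0.4.6, and edgeR 3.17 with GRCh38.p13. The annotation release and the strand setting are not given in the sources used here. The deposited values are estimated counts per Ensembl gene without normalization. The deposited log2 CPM values were not used. Of 60617 identifiers, 60357 matched GENCODE release 44.

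Estimated counts were rounded and tested with edgeR 4.0.16 in R 4.3.3 (filterByExpr, TMM, robust quasi-likelihood fit, 1 mean per group over 9 libraries). Benjamini-Hochberg adjustment covered the 18532 genes tested, with a threshold of 0.05. The test was run on simulated data in which a small set of genes changed, alike in both treated groups. That simulation did not cover a change of most genes, changed genes as low as RAET1E and RAET1L in the controls, or the comparison between the treatments. Intervals of 95% cover the spread of the fit. Levels per kilobase use the canonical transcript of GENCODE. Shared stretches are distinct 31-base words of GENCODE transcripts, and promoter windows come from the RefSeq table on GRCh38.p14.

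All 8 members were named, with called genes of lists on relatives, lymphocyte markers, shedding, regulators, heat shock, GPI anchors and other NK cell ligands, and the 2 most alike genes per member. Members and lists were chosen with earlier results of these data known. Alternatives were DESeq2 1.42.0 and its size factors, library size alone, voom and limma 3.58.1, other filters, only the libraries compared, a replicate block, a log2 fold change of at least 1 and leaving out each library. Tests with summed counts of similar genes were added after the data were seen. Values of some listed genes are not reported here.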

Additional observations from a re-analysis of the deposited data

How the results depend on the processing

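Of 426 single-gene values under alternatives, 408 kept direction and side of the threshold, 14 lost the call, 1 gained it and 3 reversed. ULBP3 turned to 0.020 for decitabine and 0.060 for the combination treatment with library size alone, by that scaling's own shift of all genes. RAET1G between the treatments turned from 0.18 to -0.065 with counts summed over ULBP2, RAET1G and RAET1L, an alternative chosen after the data were seen. For decitabine against control, 3 members instead of 6 were higher at a log2 fold change of at least 1. The count of lower members, 1 (ULBP3), was 0 with library size alone, DESeq2, only the 6 libraries compared and a log2 fold change of at least 1, and 0 to 1 with 1 library left out. For the combination treatment against control, the count of lower members, 1 (ULBP1), was 0 at that fold. Between the treatments the 2 lower members became 0 at that fold, and 0 to 3 with 1 library left out. Apart from the thresholds on fold and smaller sets of libraries, the cause was not tested. Same-numbered libraries had correlations of deviations of -0.0165 to 0.233 over genes. The highest were those between decitabine and combination replicates 1 (0.233) and between decitabine and combination replicates 3 (0.229). Whether same-numbered libraries were paired is not stated in the labels, and these values do not settle it. With a replicate block no member's call changed (6 higher and 1 lower, 6 and 1, 0 and 2), and calls between the treatments over all genes moved from 1421 higher and 1487 lower to 1766 and 1890. Depth limits RAET1E and RAET1L most, which rest on 47.0 and 47.6 counts over the 3 control libraries.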

Other observations

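Ligands of other NK cell receptors were also measured in these libraries. Of 13 listed, 11 were tested. Under decitabine 3 rose and 2 fell, under the combination treatment 4 rose and 3 fell, and between the treatments 4 were lower and none was higher by edgeR's quasi-likelihood test. Beside these counts, 36.3% of all genes tested were higher and 32.5% lower under decitabine. The shares were 35.9% and 31.3% under the combination treatment, and 7.67% and 8.02% between the treatments. Scaling by library size gave 5 higher and 1 lower under decitabine, and 5 and 2 under the combination treatment. NECTIN2, a ligand of DNAM-1, had a mean of 37.5 CPM in controls, of 90.1 after decitabine and of 66.7 after the combination treatment (log2 fold change between the treatments -0.43, adjusted p = 0.0021 in edgeR's test). ICAM1, the adhesion ligand of LFA-1, had 69.0, 177 and 113 CPM (-0.65, adjusted p = 0.022). HLA-E, the ligand of the inhibitory NKG2A receptor, had 96.3, 323 and 165 CPM (-0.97, adjusted p = 0.0039). These 3 rose with both treatments and were lower with SAM added. CLEC2B, the ligand of NKp80, was also lower with SAM (3.96 to 2.24 CPM, log2 fold change -0.82, adjusted p = 0.044 in edgeR's test), and CD58 rose under the combination treatment (log2 fold change 0.48, adjusted p = 0.0017 in the same test). KMT2E, an isoform of which is described as a ligand of NKp44, fell with both treatments (log2 fold changes of -0.68 and -0.81). BAG6, a ligand of NKp30, had log2 fold changes of -0.22 and -0.17, which turned to 0.030 and 0.049 with library size alone. PVR, the other DNAM-1 ligand, was not called, with log2 fold changes of 0.19 and 0.14 against control.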
